A study of Mus musculus with 6 samples.

Results

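The genes described here are 10 members of the incretin and class B peptide receptor system of islet β cells, out of 24421 rows of the table. They comprise 8 receptor genes (Glp1r, Gipr, Gcgr, Adcyap1r1, Vipr1, Vipr2, Crhr1 and Crhr2) and the cAMP effector genes Rapgef3 and Rapgef4, taken by symbol. RNA-seq libraries, 3 control and 3 βDKO, were from FACS-sorted islet β cells of mice aged 7 weeks. The control genotype was MIP-CreERT, Brg1f/+ and Brm+/-, and the βDKO genotype was MIP-CreERT, Brg1f/f and Brm-/-. Both groups had an R26LSL-tdTomato allele, received tamoxifen, and were of mixed C57BL/6J and 129SV background. The comparison asks how receptor transcripts of β cells differ when Brg1 and Brm, the alternative ATPases of the Swi/Snf chromatin remodeller, are both targeted. The controls carry 1 floxed Brg1 allele and 1 Brm null allele, so they are heterozygous for both and not wild type. The MIP promoter drives Cre in insulin-producing cells, and the reporter marks cells in which Cre has acted. The labels do not say whether a library came from 1 animal or a pool, so p-values measure only how much these libraries vary, in part perhaps technically. Values listed for a group are in the order of its replicates 1 to 3.

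Class B receptors bind peptide hormones and mostly couple to the stimulatory G protein, which activates adenylyl cyclase and raises cAMP. In β cells, cAMP amplifies glucose-stimulated insulin secretion through protein kinase A and through the exchange factors Epac1 and Epac2, encoded by Rapgef3 and Rapgef4. GLP-1 and GIP are the incretins, gut hormones released after a meal, and Glp1r is the target of drugs used in type 2 diabetes. Glucagon from neighbouring α cells can act on β cells through the glucagon receptor and the GLP-1 receptor.

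The stretches before the transcription start of Glp1r, Vipr1 and Rapgef4 are shown because the first pair carried transcripts that were lower in βDKO while the third was higher on the deposited scale. They are from RefSeq (build GRCm38.p6, plus strand) and run 5′ to 3′ within the 250 bases before the RefSeq start, with every CG dinucleotide in capitals. The Glp1r stretch is the part of its window that lies before the GENCODE start. The windows are chr17:30901617-30901816 for Glp1r, chr9:121642466-121642715 for Vipr1 and chr2:71980965-71981214 for Rapgef4.
Glp1r: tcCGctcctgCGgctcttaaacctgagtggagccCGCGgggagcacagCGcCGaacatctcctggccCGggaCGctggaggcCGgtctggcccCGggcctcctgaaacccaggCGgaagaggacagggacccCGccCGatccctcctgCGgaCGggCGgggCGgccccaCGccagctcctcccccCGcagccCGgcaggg
Vipr1: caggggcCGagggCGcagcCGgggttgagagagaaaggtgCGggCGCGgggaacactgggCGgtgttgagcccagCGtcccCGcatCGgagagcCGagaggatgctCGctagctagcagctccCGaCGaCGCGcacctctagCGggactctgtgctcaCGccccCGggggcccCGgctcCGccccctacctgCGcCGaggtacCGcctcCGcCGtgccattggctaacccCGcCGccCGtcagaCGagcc
Rapgef4: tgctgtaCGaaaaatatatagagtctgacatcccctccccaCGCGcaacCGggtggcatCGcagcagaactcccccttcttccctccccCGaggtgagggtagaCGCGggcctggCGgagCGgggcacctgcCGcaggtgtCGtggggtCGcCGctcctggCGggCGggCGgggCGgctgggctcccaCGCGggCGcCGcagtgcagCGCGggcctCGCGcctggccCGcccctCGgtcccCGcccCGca
All 3 stretches were rich in CG, with 20 CG in 200 bases for Glp1r, 30 in 250 for Vipr1 and 30 in 250 for Rapgef4. The full 250-base window of Glp1r held 26. The median over the 250-base windows of 32851 promoters was 6. Gipr had no entry in the table. Across the 250-base windows of the other 9 members, the count ran from 4 for Crhr2 to 30 for Vipr1 and Rapgef4. The motifs TGACGTCA (the cAMP response element) and TAATTA, searched on both strands, were in the window of 0 of the 9, against 1.55% and 4.84% of all promoters. TGCTGA was in 1 of the 9, that of Crhr1, against 16.1% of all promoters. No match means only that these letters are not in this window.

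The libraries held 25388872 to 31282056 reads, recovered from the steps between low values, and 10404 genes reached 5 TPM in at least 3 libraries and were tested. TPM, which weights reads by gene length, is scaled to a fixed total, and the insulin transcripts Ins1 and Ins2 took 42.6% to 48.3% of it in controls but 6.37% to 8.93% in βDKO. The median tested gene was therefore higher in βDKO by 0.83 on the log2 scale. Changes are given on the deposited TPM and again after division by median-of-ratios size factors (rescaled TPM), on which the median gene moved by 0.028. Below, rose and fell are used where limma's adjusted p was under 0.05, with 1 direction, on both scales alike. The targeted genes Smarca4 (Brg1) and Smarca2 (Brm) had log2 changes of −0.079 and 0.11 on TPM and −0.86 and −0.71 after rescaling, in values that cover whole genes and not the deleted part alone. All 10 β-cell markers listed were tested, and 8 of them fell, beside 4.61% of all tested genes. The others, Nkx6-1 and Pdx1, were higher on TPM in every βDKO library than in any control, as were 83.2% of tested genes. Neither passed on both scales.

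Of the 10 members, 5 passed the expression filter. Glp1r, Gipr, Gcgr and Vipr1 fell, and Rapgef4 was higher on TPM only. Across all tested genes, 4.61% were lower on TPM and on both scales, 21.1% were lower after rescaling, 81.4% were higher on TPM and 23.4% were higher after rescaling. Groups did not overlap, lower in βDKO, for 4.82% of all tested genes on TPM and 27.0% after rescaling, and, higher in βDKO, for 83.2% and 31.0%. The median log2 change of the 5 tested members was −2.25 on TPM and −2.98 after rescaling. Vipr1, whose own change is this median on both scales, passed the filter through its control libraries alone. Transcript levels here are from bulk cells, so fewer cells that carry a transcript and less transcript per cell cannot be told apart.

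**Figure D1:**
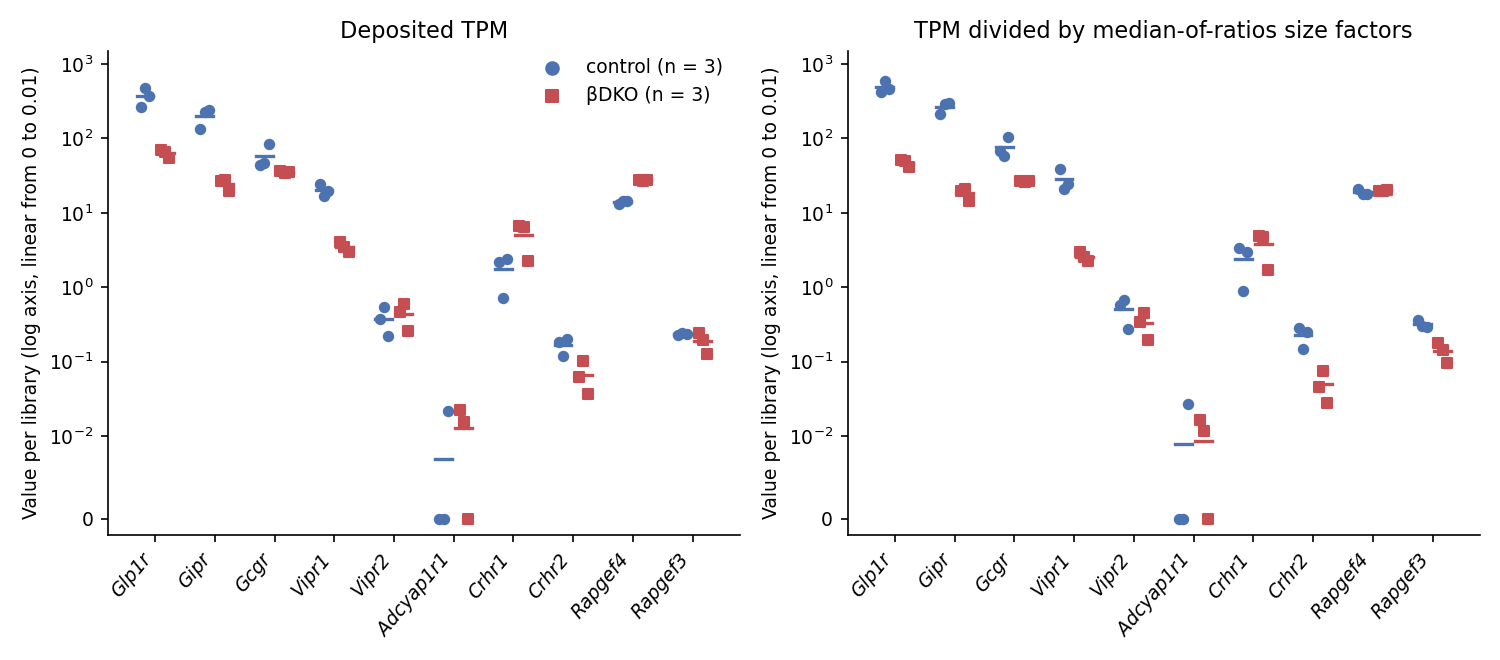
Value of each of the 10 genes in every library, on deposited TPM (left) and rescaled TPM (right). Circles are the 3 control libraries, squares the 3 βDKO libraries, and short lines the group means; the vertical axis is logarithmic above 0.01. Glp1r, Gipr, Gcgr and Vipr1 lie lower in every βDKO library than in any control on both scales, whereas Rapgef4 lies higher on the left and overlaps on the right.

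The incretin receptors had the largest TPM values among the members in controls and fell together. Glp1r (ENSMUSG00000024027.8, chromosome 17, 30901817 to 30940791, mm10), the receptor of GLP-1, had control values of 264.8, 469.9 and 365.2 TPM. Its βDKO values were 70.7, 65.7 and 54.6 TPM. The groups did not overlap, and the lowest control was several times the highest βDKO library. The group means of 366.6 ± 102.5 and 63.6 ± 8.25 TPM (SD, n = 3 each) differed 5.76-fold. The fitted log2 change on TPM was −2.48 (SE 0.20, limma adjusted p = 2.53e-05). After rescaling it was −3.32 (SE 0.15, limma adjusted p = 3.10e-06), a 10.2-fold ratio of means. Of the 10404 tested genes, 105 had a lower change on TPM and 92 after rescaling.

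Gipr (ENSMUSG00000030406.7, chromosome 7, 19156061 to 19166127), the receptor of GIP, had control values of 133.9, 228.5 and 239.6 TPM. Its βDKO values were 26.8, 27.7 and 19.3 TPM. Control 1 was the lowest control for both incretin receptors, and every βDKO library lay below it. Gipr fell 8.15-fold on TPM, from 200.7 ± 58.1 to 24.6 ± 4.61 TPM (SD, n = 3 each). Its log2 change on TPM was −2.95 (SE 0.24, limma adjusted p = 2.46e-05). After rescaling it was −3.78 (SE 0.17, limma adjusted p = 3.34e-06), a 14.4-fold ratio of means. With 70 genes lower on TPM and 60 after rescaling, Gipr had the lowest fitted change of the tested members on both scales.

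Gcgr (ENSMUSG00000025127.15, chromosome 11, 120530699 to 120538986), the glucagon receptor, fell by a smaller ratio than the incretin receptors. Its control values were 43.1, 47.1 and 84.2 TPM. Those of βDKO were 36.2, 34.2 and 35.3 TPM. The βDKO libraries lay close together and just under controls 1 and 2, while control 3 stood apart. The means of 58.2 ± 22.6 and 35.2 ± 1.0 TPM (SD, n = 3 each) differed 1.65-fold. Its log2 change on TPM was −0.64 (SE 0.23, limma adjusted p = 0.0290). After rescaling it was −1.47 (SE 0.19, limma adjusted p = 6.29e-04), a 2.94-fold ratio of means. On TPM the call was lost without βDKO 1, βDKO 2 or βDKO 3 (adjusted p = 0.0506, 0.0631 and 0.0673). Without control 3 the log2 change on TPM was −0.35 (limma adjusted p = 0.0271). After rescaling it passed in all 14 alternatives run.

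**Figure D2:**
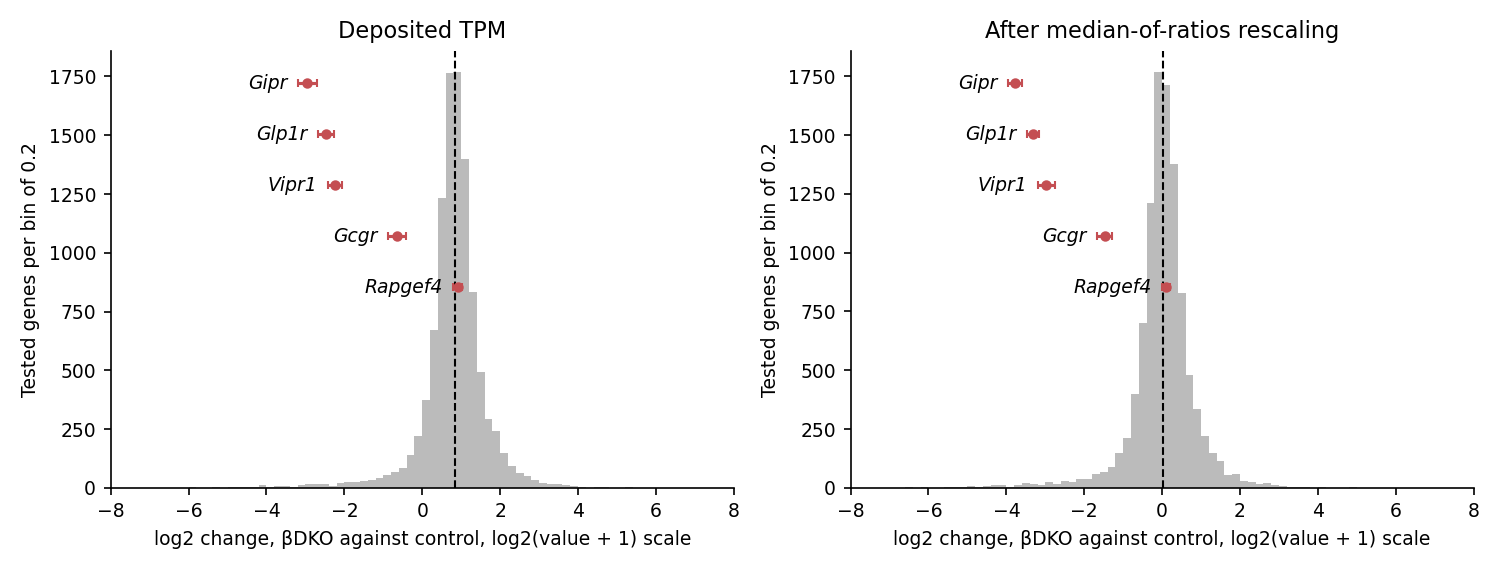
Log2 change of the 5 tested members (points, with the standard error as bars, stacked only for legibility) over the distribution of 10404 tested genes (grey, genes per bin of 0.2), on TPM (left) and after rescaling (right). The dashed line is the median gene, at 0.83 and 0.028; Gipr, Glp1r and Vipr1 lie in the far lower tail, Gcgr nearer, and Rapgef4 beside the median.

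Among the receptors for VIP and PACAP, neuropeptides released by islet nerves, Vipr1 fell while the others were near the limit of detection. Vipr1 (ENSMUSG00000032528.5, chromosome 9, 121642716 to 121672954), which encodes the VPAC1 receptor for both peptides, had control values of 24.5, 16.9 and 19.7 TPM. In βDKO the values were 4.04, 3.42 and 2.96 TPM. The groups were well separated, with 1004 to 2008 recovered reads per control library and 149 to 212 per βDKO library. Vipr1 fell 5.86-fold on TPM, with a log2 change of −2.25 (SE 0.18, limma adjusted p = 2.30e-05), and 10.8-fold after rescaling, with −2.98 (SE 0.21, adjusted p = 2.86e-05). It passed this filter through its controls alone. With a minimum of 1 TPM in 3 libraries, which its βDKO libraries also reached, limma's adjusted p was 3.46e-05 on TPM and 5.37e-05 after rescaling.

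Vipr2 (chromosome 12, 116077726 to 116146261), the VPAC2 receptor gene, had control values of 0.371, 0.537 and 0.220 TPM and βDKO values of 0.469, 0.595 and 0.259 TPM. These values rest on 9 to 22 reads per library, and the groups overlapped (exact two-sided permutation p = 0.7 on TPM and 0.3 after rescaling). Adcyap1r1 (chromosome 6, 55451978 to 55501451), which encodes the PACAP-preferring receptor PAC1, had 9 reads in all. Controls 1 and 2 and βDKO 3 held 0 reads, which allows up to 3 reads, or 0.0145, 0.020 and 0.0235 TPM. Control 3 held 0.0218 TPM, and βDKO 1 and 2 held 0.0226 and 0.0155 TPM. A difference in Adcyap1r1 was not detectable at this depth. These limits cover counting error only.

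The receptors for CRH and the urocortins were low, and they went different ways without passing on both scales. Crhr1 (ENSMUSG00000018634.10, chromosome 11, 104132855 to 104175523), the receptor through which CRH acts on β cells, had control values of 2.17, 0.715 and 2.37 TPM. Its βDKO values were 6.58, 6.36 and 2.28 TPM. βDKO 1 and βDKO 2 were above every control, whereas βDKO 3 lay among them. The first pair were also alike in the acinar-cell gene Ctrb1, at 48.1 and 47.5 TPM, beside 3.07 TPM in βDKO 3. Ctrb1 was highest in control 1, at 168.7 TPM, where Crhr1 was at 2.17 TPM. A link between these genes was not tested. Whether βDKO 1 and βDKO 2 are independent is not given, so their high Crhr1 values may not count separately. The two-sided exact permutation p was 0.2 on TPM and 0.3 after rescaling, where 3 against 3 libraries cannot give less than 0.1. Crhr1 was under the expression filter; with a minimum of 1 TPM in 3 libraries its log2 change was 1.11 (limma adjusted p = 0.0278) on TPM and 0.49 (adjusted p = 0.368) after rescaling. With no filter the adjusted p values were 0.0563 and 0.439, so the call on TPM was lost.

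Crhr2 (ENSMUSG00000003476.16, chromosome 6, 55090049 to 55133016), the receptor of the urocortins, had control values of 0.182, 0.118 and 0.20 TPM. Its βDKO values were 0.0623, 0.10 and 0.0371 TPM. The groups did not overlap, though the values rest on 15 to 32 reads per control library and 4 to 11 reads per βDKO library. The two-sided exact permutation p was 0.1, the smallest possible. In limma-voom on the recovered reads, an alternative added after seeing the data, the log2 change was −1.35 (adjusted p = 0.0524) on the TPM scale and −2.19 (adjusted p = 0.0152) after rescaling. Ucn3, the β-cell urocortin that acts through Crhr2 on δ cells, fell from 577.0 ± 21.6 to 30.7 ± 1.93 TPM (SD, n = 3 each), 18.8-fold on TPM and 34.0-fold after rescaling.

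Of the cAMP effectors, Rapgef4 moved with the typical gene. Rapgef4 (ENSMUSG00000049044.16, chromosome 2, 71981240 to 72257474), the Epac2 gene, had control values of 13.1, 14.2 and 14.5 TPM. Those of βDKO were 27.3, 26.5 and 27.2 TPM. The libraries were tightly grouped and did not overlap on TPM. The 1.94-fold ratio of means corresponded to a log2 change of 0.91 (SE 0.12, limma adjusted p = 2.20e-04), beside 0.83 for the median gene. After rescaling the values were 20.5, 17.7 and 18.0 in controls and 19.9, 19.9 and 20.5 in βDKO, which overlapped. The log2 change there was 0.10 (SE 0.10, adjusted p = 0.449). Of all tested genes, 51.7% were likewise higher on TPM with no call after rescaling.

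Rapgef3 (ENSMUSG00000022469.17, chromosome 15, 97744770 to 97767972), the Epac1 gene, had control values of 0.231, 0.239 and 0.238 TPM and βDKO values of 0.246, 0.194 and 0.128 TPM. It rested on 15 to 44 reads per library and was not tested. The groups overlapped on TPM (exact permutation p = 0.4). After rescaling, βDKO lay below the controls (0.140 ± 0.0417 against 0.318 ± 0.0373; SD, n = 3 each; exact permutation p = 0.1). In the added limma-voom alternative the log2 changes were −0.35 (adjusted p = 0.430) and −1.20 (adjusted p = 0.0372). Exons of Rapgef3 overlap the antisense transcripts Rapgef3os1 and Rapgef3os2, and exons of Rapgef4 overlap Rapgef4os2. The use of strand in counting is not given in the sources used here, so reads of these pairs cannot be told apart.

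The balance among the members within a library does not depend on how libraries are scaled to each other. Of the 10 ratios between pairs of tested members, 8 did not overlap between groups. The 10 ratios come from 5 genes, and 60.6% of the ratios between all pairs of tested genes likewise did not overlap, so the count is not particular to these genes. Each of the 8 had an exact two-sided permutation p = 0.1, the smallest that 3 against 3 allow. The ratio of Glp1r to Gipr had control values of 1.98, 2.06 and 1.52 and βDKO values of 2.64, 2.37 and 2.82, so Gipr was reduced further than Glp1r in every βDKO library. The ratio of Glp1r to Gcgr had control values of 6.14, 9.98 and 4.34 and βDKO values of 1.95, 1.92 and 1.55. The ratio of Glp1r to Rapgef4 went from 26.2 ± 6.53 to 2.36 ± 0.310 (SD, n = 3 each). The ratios of Glp1r and of Gipr to Vipr1 overlapped between groups (exact permutation p = 0.8 and 0.4).

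The 8 receptors had summed control values of 469.1, 763.8 and 711.6 TPM and summed βDKO values of 144.9, 138.0 and 114.7 TPM, a 4.89-fold ratio of means on TPM and 8.69-fold after rescaling. Glp1r made up 56.4% ± 5.10 of this sum in controls and 48.0% ± 0.709 in βDKO (SD, n = 3 each). Gipr made up 30.7% ± 2.65 and 18.5% ± 1.62, and Gcgr 9.07% ± 2.84 and 26.8% ± 3.41. Crhr1 went from 0.296% ± 0.187 to 3.71% ± 1.49. Vipr2 went from 0.0601% ± 0.0257 to 0.327% ± 0.103, on 9 to 22 reads per library. None of these 5 shares overlapped between groups, and each had an exact two-sided permutation p = 0.1. The 8 shares of a library add up to the whole by definition, so they are not separate results. No like count was made over other sets of genes. A share can be larger without a rise in TPM, as Gcgr fell and Vipr2 overlapped between groups on TPM. The share of Vipr1 overlapped, at 3.40% ± 1.6 and 2.62% ± 0.159 (exact permutation p = 0.8). Its difference of −0.786 percentage points turned to 0.124 without control 1. With annotated exon lengths it was −2.49 points, with no overlap between groups (exact permutation p = 0.1). The receptor transcripts that remained in βDKO held smaller shares of Glp1r and Gipr and larger shares of Gcgr, Crhr1 and Vipr2.

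**Figure D3:**
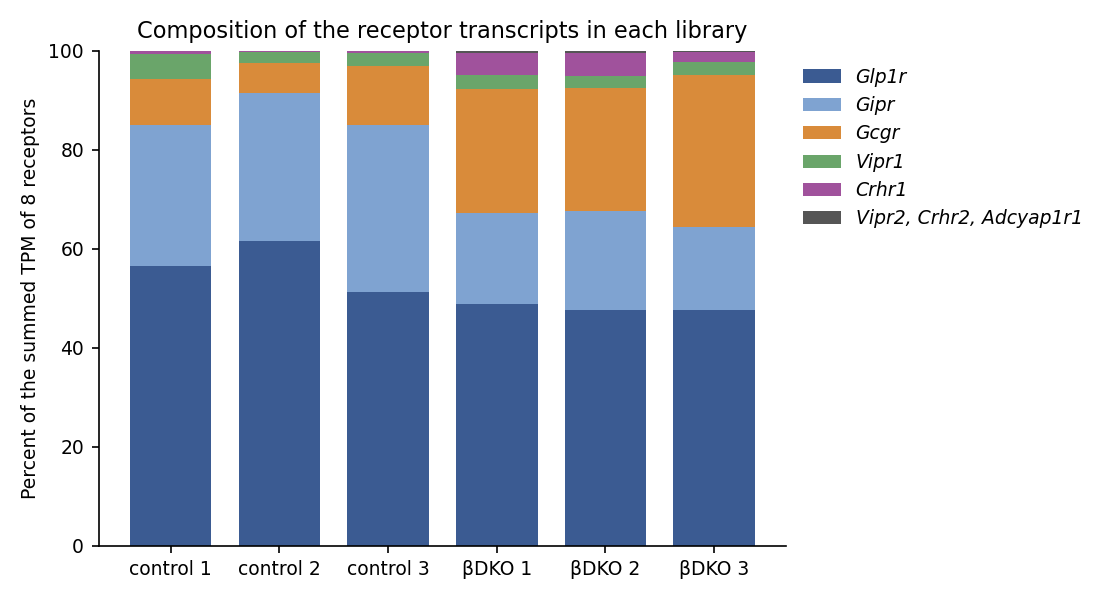
Share of each receptor gene in the summed TPM of the 8 receptors, with 1 bar per library. The Gcgr band fills 6.17% to 11.8% of the bar in controls and 24.7% to 30.8% in βDKO, where the Gipr band narrows to between 16.8% and 20.1%.

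The order of levels between genes depends on the gene lengths used. The value of a single read shows what length was behind each TPM. Relative to the median gene, that length was 0.292 times the annotated exon length for Glp1r, 0.590 times for Gipr, 0.844 times for Gcgr and 2.81 times for Rapgef4. The quartiles over all genes were 0.649 and 1.26 times. In recovered reads per kilobase of annotated exon, scaled to library size, Gipr was at 50.6 ± 12.0 and Glp1r at 45.9 ± 10.5 in controls, with overlapping libraries. Gcgr followed at 21.0 ± 7.45, then Rapgef4 at 16.9 ± 0.326 and Vipr1 at 8.62 ± 2.20 (SD, n = 3 each). In βDKO the order on this measure was Rapgef4 at 24.8 ± 0.263, Gcgr at 9.75 ± 0.163, Glp1r at 6.09 ± 0.744, Gipr at 4.77 ± 0.886, Crhr1 at 1.88 ± 0.892 and Vipr1 at 1.10 ± 0.160. Neighbours in this order whose libraries overlapped were Gcgr and Rapgef4 in controls, and in βDKO Glp1r with Gipr and Crhr1 with Vipr1. With annotated lengths, Glp1r made up 36.0% of the receptors in controls and 25.6% in βDKO, and Gcgr 16.5% and 41.4%.

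Genes elsewhere on the pathway were looked up in 8 lists with 99 names, of which 54 genes were tested. Of these 54, 17 rose and 6 fell, beside 23.4% and 4.61% of all tested genes. None of the 7 other class B receptor genes listed passed the filter. The ligand list had 4 tested genes, Ucn3, Iapp, Gcg and the incretin-degrading protease Dpp4, and all 4 fell. Iapp, the islet amyloid polypeptide, fell 10.9-fold on TPM and 19.9-fold after rescaling. Gcg, which encodes glucagon and GLP-1 and is a marker of α cells, fell 4.94-fold on TPM and 9.24-fold after rescaling. Among tested genes for receptor activity modifying and desensitising proteins, 1 of 7 rose, the β-arrestin gene Arrb2. Its rise was 2.20-fold on TPM and 1.23-fold after rescaling (limma adjusted p = 0.0453). The receptor kinase Grk5 had a rescaled log2 change of −1.0 (adjusted p = 5.93e-04), beside −0.21 (adjusted p = 0.227) on TPM.

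Downstream of the receptors, counts are read beside the 23.4% of all tested genes that rose and the 4.61% that fell. Of 4 genes for the stimulatory G protein and adenylyl cyclases, 2 rose and 0 fell. The cyclase Adcy5 had control values of 0.213, 0.147 and 0.0669 TPM and βDKO values of 11.8, 11.8 and 16.4 TPM, and it passed the filter through βDKO alone. It rose by 3.64 (log2) on TPM and by 3.18 when rescaled. Gnas, the stimulatory G protein, was higher on TPM by 0.90 (log2), with a rescaled change of 0.059 (adjusted p = 0.718). Of 12 genes of protein kinase A and its anchoring proteins, 2 rose and 1 fell. The one that fell was the catalytic subunit gene Prkacb (log2 −0.65 on TPM and −1.48 after rescaling, adjusted p = 0.00355 and 9.54e-06). Of 8 phosphodiesterase genes, whose products break down cyclic nucleotides, 4 rose and 1 fell. Pde3a had control values of 0.441, 0.452 and 0.741 TPM and βDKO values of 28.3, 24.4 and 9.28 TPM. Pde4c had control values of 8.35, 12.8 and 11.2 TPM and βDKO values of 0.556, 0.661 and 1.10 TPM. The log2 changes on TPM and after rescaling were 3.68 and 3.12 for Pde3a and −2.73 and −3.29 for Pde4c, and each of the pair passed the filter through 1 group alone.

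Of 9 tested genes on the list of Epac partners in exocytosis, 5 rose and 0 fell. The 5 include Rapgef6, another exchange factor gene, and the listed Abcc8 was not among the 9. Snap25, a SNARE protein of vesicle fusion, rose 5.06-fold on TPM and 2.87-fold after rescaling. Unc13a, a vesicle-priming factor, rose 3.39-fold on TPM and 1.91-fold after rescaling. Rap1a, a small GTPase activated by Epac, had a log2 change of 0.10 (adjusted p = 0.362) on TPM and −0.73 (adjusted p = 0.00128) after rescaling. Of 10 genes for CREB, its coactivators and the salt-inducible kinases, 3 rose and 0 fell. On TPM the rise was 2.94-fold for Sik2, 2.42-fold for Sik3 and 2.73-fold for Ep300, and after rescaling it was 1.66-fold, 1.36-fold and 1.55-fold. The median log2 change after rescaling was 0.54 for the list of Epac partners and 0.28 for the CREB list, beside 0.028 for all genes.

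**Figure D4:**
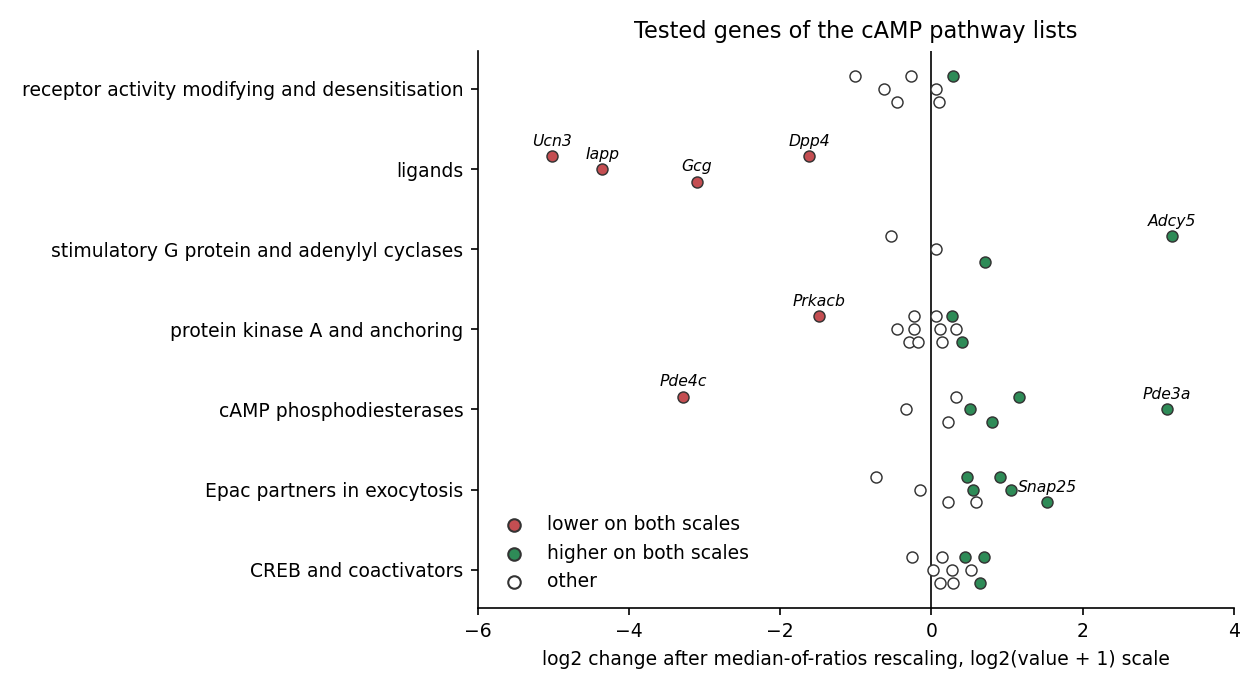
Log2 change after rescaling of 54 tested genes from the pathway lists, 1 point per gene, spread vertically only to separate points. Filled points passed limma in the same direction on both scales; the 4 genes of the ligand list lie on the left, and Adcy5 and Pde3a on the far right.

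The genes whose pattern over the 6 libraries was nearest to that of Glp1r included Ppp1r1a and Pbxip1. Nearness was the root mean square difference of log2(TPM + 1) after centring each gene, and it was 0.152 and 0.165. Ppp1r1a, an inhibitor of protein phosphatase 1, went from 525.2 ± 84.9 TPM to 84.9 ± 10.5 TPM (SD, n = 3 each), a TPM log2 change of −2.61 and a rescaled one of −3.45. For Gipr the nearest were Sema4a, Cd79a and Insrr, at 0.194, 0.196 and 0.204. Insrr, the insulin receptor-related receptor, went from 248.9 ± 77.6 to 35.4 ± 0.570 TPM (SD, n = 3 each), a TPM log2 change of −2.73 and a rescaled one of −3.57. The difference between groups dominates these patterns, so nearness mainly says that the groups differed by a like amount.

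Markers of other islet cells moved with the receptors that fell. The 8 α-cell markers summed to 2385 to 5073 TPM in controls and 586 to 882 TPM in βDKO (2964 to 7942 and 441 to 643 after rescaling), with 3 of 5 tested lower and 1 higher on both scales. The 10 immune markers summed to 121 to 212 TPM in controls and 8.39 to 14.4 TPM in βDKO (190 to 265 and 6.32 to 10.5 after rescaling), in controls mostly from C1qa, while the pan-leukocyte gene Ptprc was at 0.0127 to 0.0775 TPM in controls. All 3 tested immune markers fell, namely C1qa, Fcer1g and Cd79a, the last named above as near to Gipr. Fcer1g and Cd79a passed the filter through controls alone. The 5 δ-cell markers summed to 2520 to 5003 TPM and 1968 to 2542 TPM, which overlap, and to 3133 to 7831 and 1482 to 1909 after rescaling, which do not. Of the 3 tested, 1 was lower and 1 higher on both scales. All 3 PP-cell markers fell, from sums of 1617 to 4045 TPM to sums of 621 to 909 TPM (2010 to 6332 and 468 to 682 after rescaling). The part of these cells in the receptor values was not tested. Acinar markers summed to 11.6 to 390.8 TPM in controls, with the highest value in control 1, and to 12.1 to 101.4 TPM in βDKO (14.4 to 612 and 9.09 to 76.2 after rescaling), and 0 of 5 tested passed on both scales. Without control 1, the log2 changes on TPM were −2.69 for Glp1r and −3.21 for Gipr, and the part of acinar cells was not tested. The remaining lists had few tested genes. Of 6 duct markers only Krt7 was tested, and it fell. On TPM, the untested Cftr was above, and the untested Krt19 below, all controls in every βDKO library. Of all tested genes, 83.2% and 4.82% did the same on TPM, and the pair was not compared after rescaling. Of 6 endothelial markers only Esam was tested, and it rose, while Pecam1, Cdh5, Kdr and Tie1 were under 1 TPM in every library. Among 3 tested Schwann-cell and neuronal markers, 1 fell and 1 rose. No marker of stellate cells or fibroblasts was tested.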

How the data were processed

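RNA-seq was measured in 6 libraries of sorted β cells, 3 control and 3 βDKO, grouped by their titles. The authors deposited TPM, 1 column per sample, per the file headers. FastQC, Trimmomatic, HISAT2, HTSeq, DESeq2 and mm10 are named in the submitters' processing notes; versions, roles, gene lengths and strand use have no source here. Whole reads were recovered from ratios between libraries for 16625 of 16625 rows above 0 in at least 2 libraries (tolerance 0.01 of a read), with any factor shared by all libraries of a gene unknown.

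Genes with at least 5 TPM in 3 libraries were fitted as log2(TPM + 1) with limma 3.58.1 in R 4.3.3 (robust, with trend, group as the factor), on deposited TPM and on TPM divided by median-of-ratios size factors (0.639 to 1.37), with Benjamini-Hochberg adjustment over all 10404 tested genes at 0.05. Folds are ratios of group means; fitted changes understate those of low genes. Shares, ratios and untested members were compared with exact permutation tests (SciPy 1.17.1). The fit and the read recovery were tested on simulated data. The members and lists were chosen with earlier results of these data known; named are all members, up to 3 genes per pathway list by smallest rescaled adjusted p, the 3 genes nearest in pattern to Glp1r and Gipr, and context genes. Gnas, Dpp4 and single markers were named after their values were seen. Some genes that the rule selects are not reported here. Positions are from GENCODE M21 (mm10). Alternatives were pseudocount, filter, scale, model, replicate block, averaging of βDKO 1 and 2, and each library left out.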

Additional observations from a re-analysis of the deposited data

How the results depend on the processing

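Glp1r, Gipr and Vipr1 were lower with an adjusted p under 0.05 in all 15 alternatives on TPM and all 14 after rescaling, with log2 changes of −3.36 to −2.28, −3.83 to −2.79 and −3.12 to −2.11 on TPM. Gcgr passed in 10 of 15 on TPM: its log2 change was −0.64 without a filter (adjusted p = 0.0624), −0.64 with βDKO 1 and 2 averaged (0.0578), and −0.82 to −0.35 with a library left out, so that 3 to 4 members were called lower. Rapgef4 was at 0.068 (adjusted p = 0.584) when hormone transcripts were dropped, a scale on which 0 members were higher; with a minimum of 1 TPM, 2 members were higher on TPM, Crhr1 being added. With no filter, 6 members were lower after rescaling, Crhr2 (adjusted p = 0.0289) and Rapgef3 (0.0313) being added, and 3 on TPM. Lower calls over all genes on TPM numbered 757 with a minimum of 1 TPM, 1098 with no filter and 2330 without hormone transcripts, where 2161 genes were higher. With annotated exon lengths, an alternative added after seeing the data, the shares of Gipr, Gcgr, Adcyap1r1, Vipr1, Vipr2, Crhr1 and Crhr2 differed between groups by −19.5, 24.9, 0.0306, −2.49, 0.405, 6.97 and 0.0733 percentage points. The cause was not tested. With the replicate block, 4 members stayed lower, Gcgr had an adjusted p of 0.0160 on TPM, and no member call changed. Same-numbered libraries had correlations of −0.063, −0.026 and 0.21 between their deviations, so the numbers were not taken to pair them. Members under 1 TPM are limited by their 0 to 44 reads per library.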
